A study of Gallus gallus with 9 samples.

Results

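ADA, ANKRD1, CD38, ANKRD9 and ARHGEF6 are 5 chicken genes whose mean array signal was lower in preadipocytes given an adipogenic cocktail than without it. Their mean signal was higher with retinoic acid added to that cocktail than with the cocktail alone. They were selected on these 9 arrays, from their group means in those comparisons, so their differences there are given as a description, with no test. The choice set no threshold. They are 5 of the 13009 genes that the array annotation names by a single symbol. They have 9 of the 38535 probe sets, and 7 of the 9 were bright enough to be compared (3 or more arrays with a level of 5 or more), as were 12329 probe sets in all. A probe set is a group of short probes that together measure one transcript. Levels are log2 values, in which each unit is a doubling, and levels of different probe sets cannot be set against each other.

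The cells were fat-cell precursors isolated from adipose tissue of laying hens (Gallus gallus) and grown to confluence, and their RNA was measured on Affymetrix arrays. They were left untreated (control), given the cocktail that the labels call DMIOA, or given DMIOA with 10 uM retinoic acid, with 3 arrays in each of the 3 groups. The labels do not give the fat depot, the ingredients of DMIOA, the length of treatment or the hens behind each replicate, and no group received retinoic acid without DMIOA. The retinoic acid arrays therefore share the cocktail with the DMIOA arrays and differ from control by both agents at once.

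Retinoic acid, made from vitamin A, binds nuclear receptors that sit on DNA and switch target genes on or off, and in fat-cell precursors it is known mainly as a brake on differentiation. The 5 genes come from different parts of cell biology. ADA encodes adenosine deaminase, which turns adenosine into inosine and so ends adenosine signals. CD38 encodes a surface enzyme that consumes NAD and makes messengers that release calcium from internal stores; in human myeloid cells it is a textbook retinoic acid-induced gene. ANKRD1 encodes an ankyrin repeat protein of muscle that binds titin and also enters the nucleus, and its gene is a well-known target of the YAP and TEAD transcription factors. ANKRD9 encodes an ankyrin repeat protein that in human cells recruits targets to a cullin 5 ubiquitin ligase, with the purine enzyme IMP dehydrogenase among its partners. ARHGEF6 encodes a guanine nucleotide exchange factor that activates the small GTPases Rac1 and Cdc42 near focal adhesions.

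A level of 5 or more was reached by 30.9% to 31.3% of the 37693 chicken probe sets on each array. Replicate 3 stood apart from replicates 1 and 2 in every group: across probe sets it correlated at r = 0.912 to 0.931 with the other arrays of its group, against 0.963 to 0.997 between replicates 1 and 2. It also carried macrophage and leukocyte markers. The summed level of the 15 measured markers, of 19 with a probe set, was 7.22 to 7.69 (log2) in replicates 1 and 2 and 12.34 to 13.62 in replicate 3. A marker bright only in replicate 3 passed the filter, so this sum favours that replicate. Of all 19 markers, 1 to 3 reached a level of 5 per array in replicates 1 and 2, and 16 or 17 in replicate 3. Among those not measured, TLR4 (1.43 to 2.67) and MRC1 (2.14 to 2.43) stayed low everywhere. C1QA and LY96 peaked in control replicate 3 (9.34 and 6.68). Of 11 preadipocyte and fibroblast markers 9 were measured, with a summed level of 16.31 to 16.59 over all arrays, while PDGFRA and DLK1 stayed below 5 everywhere. The brightest markers, such as FN1 (14.41 to 14.64), dominate this sum, and single markers differed. LUM had 12.60 to 13.28 in control, 10.88 to 12.62 with DMIOA and 11.21 to 11.61 with retinoic acid. In that order PDGFRB had 8.51 to 9.07, 8.23 to 8.82 and 7.43 to 8.16. DCN (13.25 to 13.56) and THY1 (9.10 to 9.86) varied little, and ZNF423 ran from 4.72 to 7.92. Of 12 adipocyte markers 7 were measured, among them FABP4 (6.26 to 12.96 over the 9 arrays), PPARG (6.91 to 10.41), FASN (9.97 to 11.44) and PLIN2 (9.74 to 12.08), while CEBPA, PLIN1 and ADIPOQ stayed below 5 everywhere.

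ADA (gene ID 419194) had a different level in each of the 3 groups. Its measured probe set stood at 7.31, 7.43 and 7.39 in control replicates 1, 2 and 3, at 6.47, 6.20 and 6.15 with DMIOA, and at 8.81, 8.71 and 8.94 with retinoic acid added. The 3 groups did not overlap, with DMIOA lowest, control in the middle and retinoic acid highest. The mean was 7.38 ± 0.06 (SD, n = 3) in control, 6.27 ± 0.17 with DMIOA and 8.82 ± 0.11 with retinoic acid, which puts DMIOA 2.15-fold below control and retinoic acid 5.85-fold above DMIOA. Replicate 3, with its high leukocyte markers, averaged 7.49 over the groups, the same as replicates 1 and 2. The second ADA probe set lay between 1.97 and 3.10 on the 9 arrays, below the level compared, and gives no information on the pattern.

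ANKRD1 (gene ID 378926) had its lowest levels with DMIOA in both measured probe sets. Its first probe set had 9.43, 9.49 and 9.68 in control, 7.83, 5.02 and 6.68 with DMIOA, and 9.78, 9.81 and 9.47 with retinoic acid. All DMIOA arrays lay below all others, and control and retinoic acid overlapped. DMIOA was also the group with the widest spread, 6.51 ± 1.41 (SD, n = 3) against 9.53 ± 0.13 in control and 9.69 ± 0.19 with retinoic acid, and DMIOA replicate 2 was its lowest array. The difference was -3.02 ± 0.59 (SE) from control to DMIOA, an 8.12-fold lower level, and 3.18 ± 0.59 from DMIOA to retinoic acid, a 9.06-fold higher one. Without DMIOA replicate 2 the difference from control to DMIOA was -2.28, its smallest size when any 1 array was left out.

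In the second ANKRD1 probe set the DMIOA arrays again lay below all others. It had 5.68, 6.07 and 6.57 in control, 3.59, 1.87 and 3.16 with DMIOA, and 5.88, 5.95 and 5.70 with retinoic acid. All 3 DMIOA values were under 5, so the level was at least 2.15-fold lower than in control and at least 1.79-fold lower than with retinoic acid, computed with 5 in place of each. Over the 9 arrays both probe sets correlated at r = 0.976. The remaining ANKRD1 probe set lay between 1.04 and 1.57 throughout.

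CD38 (gene ID 422827) had 5.87, 6.08 and 5.01 in control replicates 1, 2 and 3. With DMIOA it had 4.28, 3.26 and 2.43, all below 5, and with retinoic acid it had 7.13, 7.30 and 4.86. The DMIOA arrays lay below all others, while the retinoic acid and control arrays overlapped. On this scale CD38 was at least 1.57-fold lower with DMIOA than in control and at least 2.69-fold higher with retinoic acid than with DMIOA, with fitted differences of -2.33 ± 0.72 (SE) and 3.11 ± 0.72. In each group replicate 3 was the lowest array, where the leukocyte markers were highest; its mean over the groups differed from that of replicates 1 and 2 by -1.55.

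**Figure D1:**
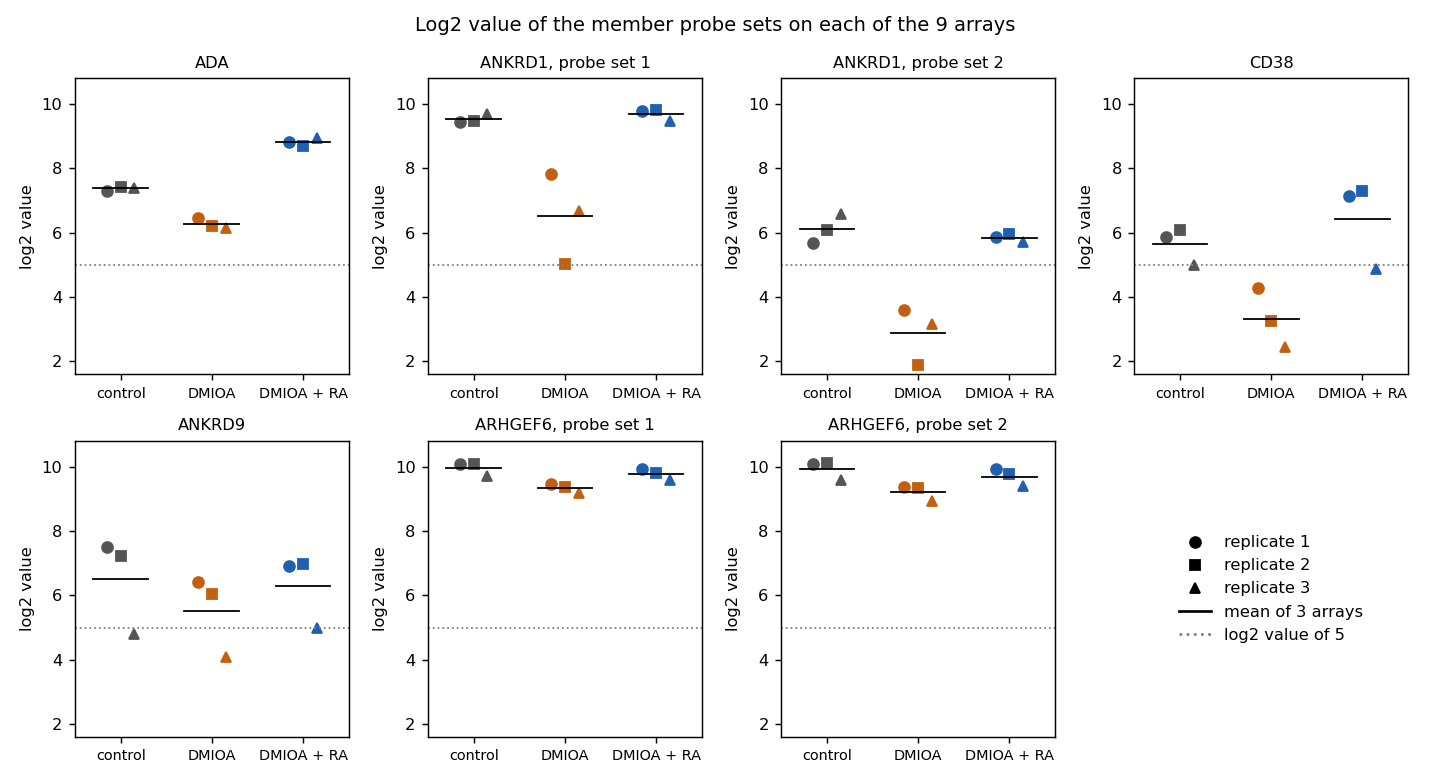
Log2 value of the 7 measured member probe sets (vertical axis) in the 3 groups (horizontal axis), 1 symbol per array, with the group mean as a line and a log2 value of 5 dotted. The DMIOA arrays lie below all others in every panel but that of ANKRD9, where replicate 3 is the lowest array of each group.

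ARHGEF6 (gene ID 422247) had the smallest differences of the 5 genes, in a pair of probe sets that followed each other closely (r = 0.986 over 9 arrays). The first had 10.09, 10.10 and 9.73 in control, 9.46, 9.37 and 9.20 with DMIOA, and 9.94, 9.82 and 9.58 with retinoic acid. The second had 10.10, 10.12 and 9.58 in control, 9.36, 9.34 and 8.93 with DMIOA, and 9.92, 9.77 and 9.40 with retinoic acid. In both, DMIOA lay below the other groups without overlap, and control and retinoic acid overlapped. With DMIOA the first probe set was 1.55-fold and the second 1.65-fold lower than in control, and with retinoic acid they were 1.36-fold and 1.41-fold higher than with DMIOA.

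ANKRD9 (gene ID 423469) showed the pattern in replicates 1 and 2 and not between the groups as a whole. It had 7.52, 7.24 and 4.81 in control, 6.42, 6.03 and 4.07 with DMIOA, and 6.92, 6.99 and 5.00 (just under 5 before rounding) with retinoic acid. Replicate 3 lay below 5 in all 3 groups, with a mean of 4.62 against 6.85 in replicates 1 and 2, so all 3 groups overlapped. From control to DMIOA the difference was -1.10 and -1.21 in replicates 1 and 2, and from DMIOA to retinoic acid it was 0.50 and 0.95. In replicate 3 the differences had the same signs (-0.73 and 0.92) but lie between values below the compared level. The fitted differences of -1.01 and 0.79 had a standard error of 0.93 each, and of 0.16 each when the replicate number was a block. Leaving out 1 array moved them to between -1.87 and -0.30, and to between 0.08 and 1.45. Those fits had no replicate block, so each array left out also changed the weight of the low replicate 3 in its group mean.

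Over all 12329 compared probe sets, DMIOA was lower than control without overlap in 7.34%, retinoic acid higher than DMIOA without overlap in 12.8%, and both held in 1.38%, or 170 probe sets. Of the 7 member probe sets 6 are among the 170, all but that of ANKRD9. By limma 0.146% of all compared probe sets were called in DMIOA against control and 3.89% in retinoic acid against DMIOA. Both comparisons use the same 3 DMIOA arrays, so a low reading on those arrays enters both, and since the members were chosen for this pattern the count says nothing further.

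The comparison that the choice of members did not name is DMIOA plus retinoic acid against untreated control. It asks how each gene's level with both agents compared with that of untreated cells. It uses the same arrays as the choice, and its difference is the sum of the differences that the choice used. A member chosen for a large rise with retinoic acid is thus favoured to lie above control, and one chosen for a large fall with DMIOA to lie below it. The members' p-values here are therefore not independent of the choice and add no separate support. ADA lay above control and was the only member called. Its level was 1.45 ± 0.13 (SE) higher, or 2.72-fold (95% confidence interval of the log2 difference 1.16 to 1.73, limma, Benjamini-Hochberg adjusted p = 0.000729). It was higher in each replicate number, by 1.51, 1.28 and 1.55. With any 1 array left out the difference stayed between 1.39 and 1.50, with an adjusted p of at most 0.00636. In this comparison 13.2% of all compared probe sets were called, 6.74% higher, and retinoic acid lay above control without overlap in 23.1%. Lower calls made up 6.42%. ADA was the only 1 of the 7 member probe sets with either, so nothing is read from the count of members.

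The other 4 genes were not called against control. The first ANKRD1 probe set differed by 0.16 (95% confidence interval -1.22 to 1.53, limma adjusted p = 0.892) and the second by -0.26 (-1.24 to 0.71, adjusted p = 0.731), both wide intervals. ARHGEF6 was measured more narrowly, at -0.19 (-0.55 to 0.16, adjusted p = 0.446) and -0.24 (-0.73 to 0.26, adjusted p = 0.511), with retinoic acid below control in all 3 replicate numbers. With the replicate block its intervals were -0.41 to 0.03 (limma adjusted p = 0.152) and -0.46 to -0.02 (adjusted p = 0.0979). The second of these excluded 0, though neither probe set was called. ANKRD9 differed by -0.22 (-2.37 to 1.93, adjusted p = 0.904), or -0.61 to 0.17 with the replicate block (limma adjusted p = 0.340). By replicate number the ANKRD9 difference was -0.60, -0.25 and 0.19, the last between values below 5. Without the block, its fitted sign turned without control replicate 1, control replicate 2 or retinoic acid replicate 3 (0.28, 0.14 and 0.43). Leaving out 1 array in such fits also changes the weight of the low replicate 3 in its group mean.

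For CD38 the answer differed by replicate number. Retinoic acid was above control by 1.26 and 1.22 in replicates 1 and 2 and the difference was -0.15 in replicate 3, with a fitted difference of 0.78 (95% confidence interval -0.89 to 2.44, limma adjusted p = 0.519, 0.148 with the replicate block). With replicates 1 and 2 alone the difference was 1.24 (adjusted p = 0.0499), in a fit that called 3620 of the 12329 compared probe sets. When 1 array was left out it ranged from 0.34, without retinoic acid replicate 2, to 1.56, without retinoic acid replicate 3. The difference was called in no such fit (limma adjusted p from 0.105, without retinoic acid replicate 3, to 0.846). It was 0.43 without retinoic acid replicate 1 and 0.45 without control replicate 3.

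**Figure D2:**
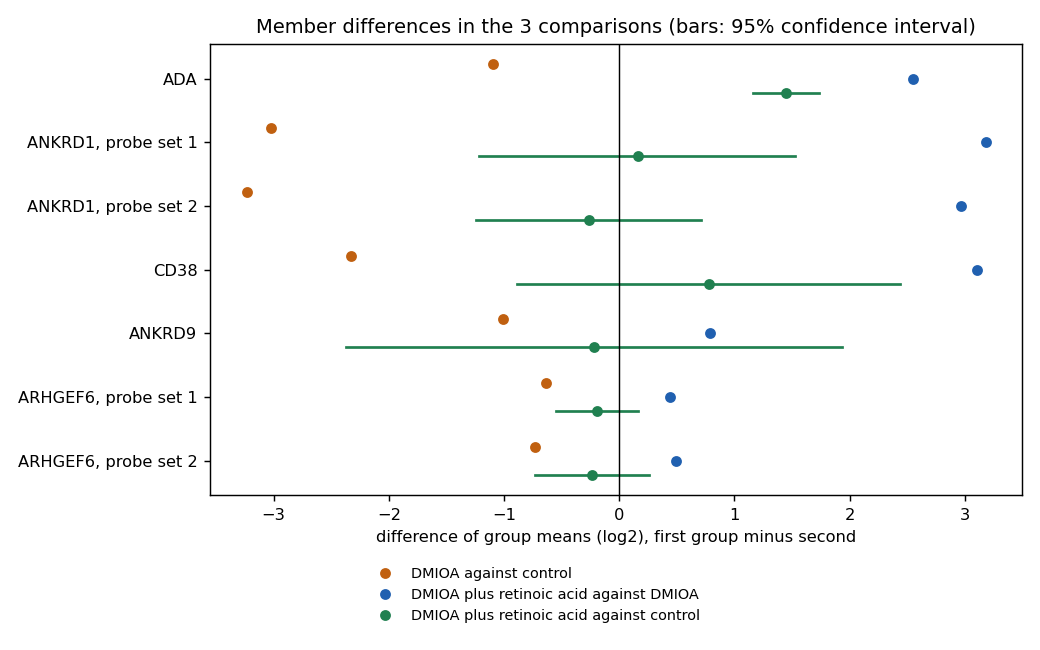
Difference of group means on the log2 scale (horizontal axis, first group minus second) for the 7 measured member probe sets (vertical axis) in the 3 comparisons, with points for the fitted difference and, only for retinoic acid against control, bars for its 95% confidence interval. In that comparison, fitted without the replicate block, the interval for ADA runs from 1.16 to 1.73 and the other 6 intervals include 0.

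In RNA from a whole culture, fewer cells of one type and less RNA per cell cannot be told apart, so marker levels are given beside the members. Of 16 skeletal and cardiac muscle markers 3 were measured, MYOM2, MYH1E and TNNT3. Their summed level was 8.92 to 9.27 in control, 6.94 to 7.85 with DMIOA and 5.82 to 6.69 with retinoic acid. The sum covers markers that went different ways. MYOM2 had 8.13, 8.07 and 5.56 in control and was under 5 on all 6 other arrays. MYH1E had 7.02, 8.09 and 9.03 in control, 4.83, 5.86 and 6.43 with DMIOA, and was under 5 on all retinoic acid arrays, where the first ANKRD1 probe set stood at 9.47 to 9.81. TNNT3 had 6.20, 6.07 and 5.63 in control, 6.41, 7.40 and 5.79 with DMIOA and 6.44, 6.27 and 5.16 with retinoic acid, so it was not lower with DMIOA. The defining muscle genes MYOD1, MYOG, DES and TTN were at or below 2.65 on all arrays. The 4 measured smooth muscle markers of 5 summed to 13.48 to 13.97 in control, 13.16 to 13.79 with DMIOA and 12.36 to 13.43 with retinoic acid. This sum also covers different directions. ACTA2 had 8.79, 8.80 and 8.66 in control and 5.87, 6.28 and 6.16 with retinoic acid. TAGLN and MYLK were likewise lower with retinoic acid than in control in each replicate number. MYH11 was higher, with 6.33, 7.12 and 6.28 in control and 8.83, 8.88 and 6.63 with retinoic acid.

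The leukocyte markers varied by replicate number more than by treatment. Within replicate 3 their summed level was 13.62 in control, 12.85 with DMIOA and 12.34 with retinoic acid. Single markers of this sum differed there. In the same order of groups C1QB had 10.93, 10.09 and 7.43, and CD74 had 9.49, 6.18 and 7.25. LAPTM5 had 10.14, 10.15 and 10.14, and HAVCR1 had 7.87, 8.06 and 8.73. ADA, CD38 and ARHGEF6 are all used by leukocytes. In replicates 1 and 2, where the summed leukocyte level did not exceed 7.69, the DMIOA array was the lowest of its replicate number for each of the 7 member probe sets. The members were chosen for low values with DMIOA, so this is a description and says nothing on which cells the signal came from. Of 12 lymphocyte markers 1 was measured, BLB1. It had 5.41, 5.69 and 6.57 in control, 5.14, 5.55 and 5.20 with DMIOA and 6.22, 6.07 and 5.40 with retinoic acid. For BLB1 the DMIOA array was the lowest of each replicate number. In replicate 3 the DMIOA array was also the lowest for CD74, SPI1, CTSS, FCER1G and IRF8 of the leukocyte list. Others of that list, among them PTPRC, CSF1R, C1QC, LY86 and MARCO, were lowest there with retinoic acid. BLB1 alone is not read as a sign of lymphocytes. Among the lymphocyte markers not measured, CD3E, CD4, CD8A and PAX5 were below 5 on all arrays. The 7 measured adipocyte markers summed to 12.10 to 12.46 in control, 12.75 to 14.00 with DMIOA and 12.03 to 13.66 with retinoic acid. They, too, went different ways. FABP4 had 10.39, 10.07 and 9.57 in control, 10.61, 12.94 and 12.96 with DMIOA and 6.41, 6.26 and 12.28 with retinoic acid. LPL had 6.63, 6.73 and 8.18 in control, 4.70, 5.04 and 7.50 with DMIOA and 3.91, 4.30 and 5.99 with retinoic acid. Of 10 endothelial markers 4 were measured. They summed to 10.89 to 11.83 in control, 10.64 to 11.63 with DMIOA and 10.04 to 11.15 with retinoic acid. In that order PECAM1 had 6.82 to 7.42, 4.99 to 6.06 and 3.83 to 5.31. CDH5 had 7.82 to 10.92, 8.64 to 10.93 and 7.82 to 10.82. Of 3 mesothelial markers 2 were measured, and summed to 11.95 to 12.79, 12.08 to 13.14 and 11.58 to 12.83. The part of other cell types and of the degree of differentiation in the members' values was not tested beyond these levels.

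**Figure D3:**
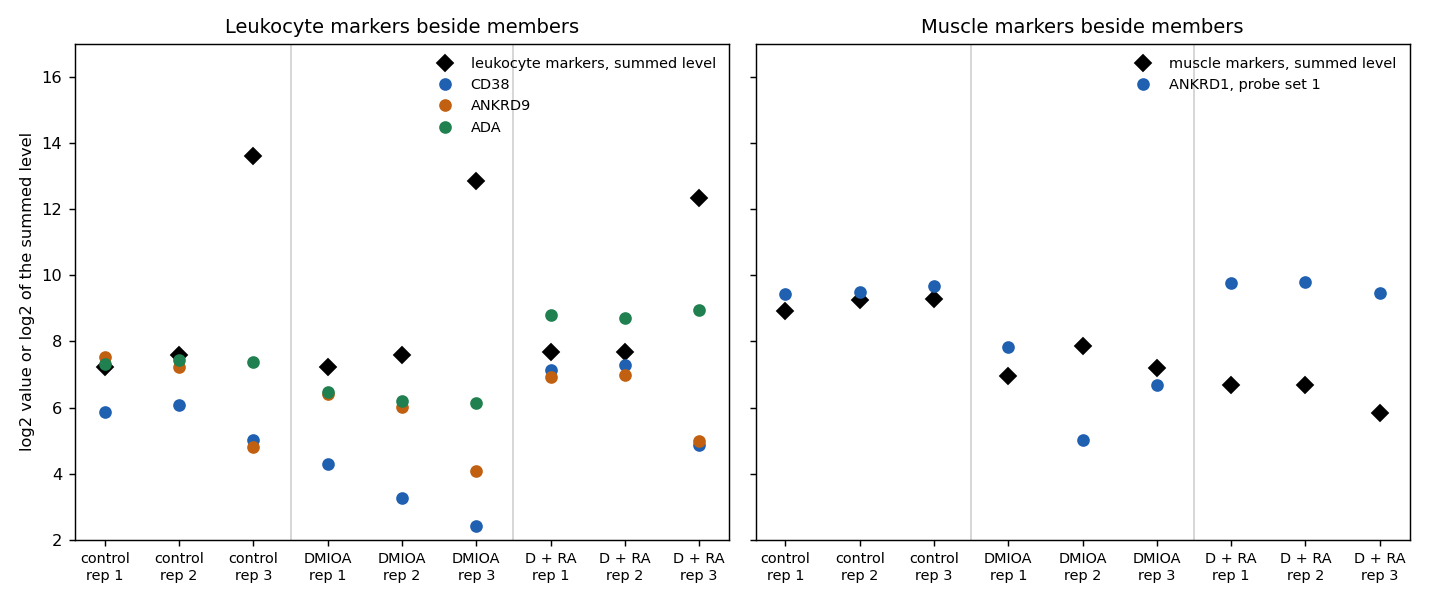
Log2 values of members on each of the 9 arrays (points, horizontal axis) beside the log2 of the summed level of 15 leukocyte markers (left) and 3 muscle markers (right). The leukocyte markers are high in replicate 3 of each group, where CD38 and ANKRD9 are at their lowest, and the summed muscle level is lowest with retinoic acid, where the first ANKRD1 probe set stands at 9.47 to 9.81.

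Correlations among the members were computed on the log2 values and again with the mean of each replicate number subtracted. With it subtracted, ANKRD1 (first probe set) and CD38 correlated at r = 0.957 over the 9 arrays, ANKRD1 and ARHGEF6 (first probe sets) at 0.879, and ADA and CD38 at 0.900. ADA and ARHGEF6 (first probe set) had the lower value of 0.609. Subtraction moved ADA and ANKRD9 from 0.263 to 0.658, and CD38 and ARHGEF6 (first probe set) the other way, from 0.857 to 0.817. These values describe genes picked for 1 shared pattern and say nothing further on whether they belong together.

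Genes with the most similar profiles were looked for among 6940 other named genes. For ADA they were UBA6, an E1 enzyme for ubiquitin (r = 0.980 over 9 arrays), the nucleoside diphosphate kinase gene NME3 (0.979) and ANKIB1 (0.967). NME3 had means of 7.50, 6.89 and 8.16 in control, DMIOA and retinoic acid. With the replicate means subtracted they were BRAP, the microfibril gene MFAP2 and MYCBP2 (0.992, 0.988 and 0.986). For ANKRD1 they were the cytokine gene IL6 (0.973), with means of 9.72, 6.96 and 10.58, IFT43 (0.967) and EPAS1, which encodes a hypoxia-inducible factor (0.962). With replicate means subtracted they were MYO10L, the potassium channel gene KCNQ1 and MYOCD, which encodes the muscle coactivator myocardin (0.984, 0.982 and 0.977). MYOCD had 8.90, 8.09 and 8.90 in the 3 groups.

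For CD38 the closest gene on both measures was CH25H, which encodes cholesterol 25-hydroxylase (0.955, and 0.996 with replicate means subtracted). Its means were 6.86, 5.02 and 7.33. SLC47A1 and the cation channel gene TRPC4 came next (0.949 and 0.945), or IFT43 and WFS1 with replicate means subtracted (both 0.989). For ANKRD9 the closest were the DNA repair polymerase gene POLB, MAP9 and DENND6B (0.982, 0.977 and 0.976), and with replicate means subtracted PMS1, the purine salvage gene MTAP and RUNDC3B (0.972, 0.967 and 0.965). For ARHGEF6 they were the secreted collagen triple helix gene CTHRC1 (0.948), with means of 10.89, 9.37 and 10.36, KALRN (0.938) and JPH3 (0.934). With replicate means subtracted they were DKK3, MTHFS and MAN1C1 (0.972, 0.962 and 0.958). Each was picked as the highest of many correlations over 9 arrays that share treatments and replicate numbers.

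Genes that work with each member were then followed through the same comparisons. In DMIOA against control limma called 0 of them in any of the 6 lists, where 0.115% of named genes were called lower and 0.0288% higher. At an unadjusted p under 0.05 the lists of purine, NAD, YAP, titin, cullin and Rac genes had 2, 1, 0, 0, 2 and 1 genes higher and 1, 1, 1, 0, 0 and 3 lower, where 6.08% of all named genes were higher and 5.86% lower at that p. With the replicate block ITPR3, which passed the filter only through its control arrays, was called lower. DOCK1 was called higher with that block, where 0.878% of named genes were lower and 0.403% higher. The lowest p values were those of HPRT1 (-0.68, adjusted p = 0.266), ITPR3, F3, PALLD (-0.16, adjusted p = 0.749), ARIH2 (0.83, adjusted p = 0.207) and DOCK1, in the same order of lists.

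Of 17 measured genes of adenosine and purine handling, the partners of ADA, limma called 2 lower and 0 higher in retinoic acid against control, where 6.12% of named genes were called lower and 6.74% higher. With the replicate block 3 were lower and 3 higher, beside 12.3% and 16.0% of named genes. HPRT1, the purine salvage enzyme, had 10.45, 10.44 and 10.58 in control and 9.21, 9.33 and 9.54 with retinoic acid, a change of -1.13 ± 0.20 (SE, adjusted p = 0.0119), and its other probe set changed by -1.42 (adjusted p = 0.00359). ENPP3, an ectonucleotide pyrophosphatase, fell by 2.70 ± 0.56 on the log2 scale (adjusted p = 0.0205). Its values were 11.22, 11.45 and 12.24 in control, 11.10, 10.82 and 11.62 with DMIOA and 8.26, 8.24 and 10.30 with retinoic acid. ADA and these 2 called genes therefore stood on opposite sides of their untreated level, which does not hold for the list as a whole. At an unadjusted p under 0.05, 6 of the 17 were higher and 2 lower, beside 18.6% and 11.9% of named genes. Leaving out retinoic acid replicate 1 or 2 ended both calls, and leaving out control replicate 1 or 2 ended that of ENPP3 (adjusted p up to 0.0582 for HPRT1, and up to 0.0810 for ENPP3). The list's count was 0 without retinoic acid replicate 1 or 2, 1 without control replicate 1 or 2, and 4 without control or retinoic acid replicate 3.

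Against DMIOA alone 0 of the 17 purine genes were called by limma with retinoic acid (0 higher and 1 lower at an unadjusted p under 0.05, where 9.07% and 6.93% of named genes were), or 1 higher and 2 lower with the replicate block, beside 5.49% and 4.98% of named genes. The lowest p was that of ENPP3, at -2.25 ± 0.56 (adjusted p = 0.0763, blocked 0.00885), while its other probe sets had -1.51 (adjusted p = 0.0129) and -3.03 (adjusted p = 0.0217). The list's median difference was 0.00 there and 0.14 against control, beside 0.06 and 0.09 over all named genes.

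Of 15 measured genes of NAD turnover and calcium release, the setting of CD38, limma called 1 higher and 1 lower in retinoic acid against control. In that comparison 6.74% of named genes were called higher and 6.12% lower. With the replicate block 4 were higher and 2 lower, beside 16.0% and 12.3% of named genes. ITPR3, a calcium release channel opened by inositol trisphosphate, had 5.11, 5.53 and 6.68 in control and 3.05, 3.39 and 3.94 with retinoic acid, all of the latter below 5 (adjusted p = 0.00950). With DMIOA alone it had 3.76, 3.72 and 3.94 (adjusted p = 0.135, blocked 0.0369), so it was below the compared level in both treated groups. ITPR3 passed the filter only through its control arrays, so its lower calls are not independent of the filter. TPCN2, a channel of endolysosomes linked to the CD38 product NAADP, rose by 0.83 ± 0.18 against control (adjusted p = 0.0221) and had 0.65 ± 0.18 against DMIOA (adjusted p = 0.0974, blocked 0.0339). Its call against control did not survive the loss of control or retinoic acid replicate 1 or 2 (0.0912 at most), and the list then held 1 call. Against DMIOA 0 of 15 were called by limma (1 higher at an unadjusted p under 0.05, where 9.07% of named genes were). The list's median difference against control was 0.02.

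The YAP and TEAD list, the best-known context of ANKRD1, held 25 measured genes. In retinoic acid against control 3 of them were called lower and 0 higher, beside 6.12% and 6.74% of named genes. With the replicate block 4 were lower and 4 higher, beside 12.3% and 16.0% of named genes. CCDC80, a secreted matrix protein gene, changed by -1.31 ± 0.23 (SE, adjusted p = 0.0101), the transcription factor gene TEAD3 by -0.70 ± 0.14 (adjusted p = 0.0200) and the matricellular gene CYR61 by -0.83 ± 0.23 (adjusted p = 0.0492). Only the call of CCDC80 held whichever 1 of the 9 arrays was left out. The call of TEAD3 was lost without control or retinoic acid replicate 1 or 2 (up to 0.0861), and that of CYR61 without any 1 array other than DMIOA replicate 2 (up to 0.160). The list's count was 1 without control or retinoic acid replicate 1 or 2, and 5 without control replicate 3, and its median difference against control was -0.22.

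F3, the tissue factor gene, had the lowest p of this list in DMIOA against control. It stood at 9.47, 9.56 and 7.43 in control, 8.09, 6.03 and 5.54 with DMIOA and 8.70, 8.81 and 7.64 with retinoic acid. DMIOA was the lowest of each replicate number, as for ANKRD1, but the groups overlapped, and the change of -2.27 ± 0.79 did not pass (adjusted p = 0.323, blocked 0.0742). Against DMIOA 0 of the 25 were called by limma with retinoic acid. At an unadjusted p under 0.05, 4 were higher and 4 lower, beside 9.07% and 6.93% of named genes. With the replicate block 2 were called higher and 2 lower, beside 5.49% and 4.98% of named genes. CCDC80 came nearest, at -0.97 (adjusted p = 0.0610, blocked 0.0410). CYR61, a classical YAP target like ANKRD1, had 12.97, 13.13 and 13.27 in control, 13.19, 12.41 and 13.20 with DMIOA and 12.22, 12.17 and 12.48 with retinoic acid. Its mean was lowest with retinoic acid, where that of ANKRD1 was not, though DMIOA replicate 2 lay below retinoic acid replicate 3.

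Of the titin partners and muscle ankyrin repeat genes 3 of 13 with a probe set were measured. FHL1, a LIM-domain protein of muscle, had 10.90, 10.72 and 11.14 in control, 10.90, 9.77 and 11.12 with DMIOA and 7.40, 7.97 and 8.78 with retinoic acid. It fell by 2.55 ± 0.43 from DMIOA (adjusted p = 0.0184), where ANKRD1 had its higher values. Leaving out DMIOA replicate 1 or 3, or retinoic acid replicate 1 or 2, ended that call (up to 0.0855), while the one against control (-2.87 ± 0.43, adjusted p = 0.00592) held without any 1 array. The median difference of the 3 genes against control was -0.06.

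Around ANKRD9, 10 genes of the cullin 5 ligase and IMP dehydrogenase list were measured. TCEB1, the adaptor elongin C, was called higher in retinoic acid against control, by 0.86 ± 0.21 (adjusted p = 0.0342), and its other probe set had 0.87 (adjusted p = 0.0253). With the replicate block 2 of the 10 were called higher, beside 16.0% of named genes, against 6.74% without the block. The TCEB1 call was lost without any 1 of the retinoic acid arrays or without control replicate 1 or 2 (up to 0.126). Against DMIOA 0 of 10 were called by limma (1 higher at an unadjusted p under 0.05, where 9.07% of named genes were). TCEB1 was at 0.69 there (adjusted p = 0.137, blocked 0.0184). The list's median difference against control was 0.27.

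The 29 measured Rac and Cdc42 genes around ARHGEF6 held the most calls. In retinoic acid against control 2 rose and 6 fell, 6.90% and 20.7% of the list beside 6.74% and 6.12% of all named genes. With the replicate block 3 were higher and 8 lower, beside 16.0% and 12.3% of named genes. The genes added were RHOJ (1.34, adjusted p = 0.0509, blocked 0.0278), ARHGAP24 (-0.98, adjusted p = 0.0817, blocked 0.0284) and CYFIP1 (-0.44, adjusted p = 0.140, blocked 0.0342). LIMS1, an adaptor of integrin-linked kinase, had 9.54, 9.55 and 10.03 in control, 9.47, 9.63 and 9.78 with DMIOA and 10.72, 10.73 and 10.87 with retinoic acid, a rise of 1.07 ± 0.16 (SE, adjusted p = 0.00631) that its other 3 probe sets shared. PARVA, the parvin that binds the same kinase, had 7.53, 7.23 and 7.03 in control and 5.99, 6.05 and 5.72 with retinoic acid (-1.35 ± 0.22, adjusted p = 0.00778). The GTPase gene RHOQ changed by -0.66 ± 0.10 and ARHGDIA by -0.58 ± 0.10 (adjusted p = 0.00521 and 0.00997). The calls of LIMS1, PARVA and RHOQ held without any 1 array, and that of ARHGDIA was lost without retinoic acid replicate 1 or 2 (up to 0.0559). The remaining calls, DOCK1 (0.81), ELMO1 (-2.16), TIAM2 (-1.02) and VAV3 (-2.62), were each lost without control or retinoic acid replicate 1 or 2. The other probe set of DOCK1 had 0.12 (limma adjusted p = 0.877). Those of ELMO1 and VAV3 had -2.69 and -2.32 (adjusted p = 0.0471 and 0.0411). The list's count was 3 without retinoic acid replicate 1 or 2 and 4 without control replicate 1 or 2. The list, which leaves out ARHGEF6 itself, had a median difference of -0.12 against control.

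From DMIOA to retinoic acid limma called LIMS1 higher (1.15 ± 0.16, adjusted p = 0.00923) and RHOQ lower (-0.47 ± 0.10, adjusted p = 0.0385), with 2.04% of named genes called higher and 1.68% lower. With the replicate block 2 were higher and 2 lower, beside 5.49% and 4.98% of named genes. The call of LIMS1 was lost without retinoic acid replicate 2 (adjusted p = 0.0509), and that of RHOQ without any 1 of 7 arrays (up to 0.186), the 2 exceptions being control replicate 3 and retinoic acid replicate 3. DOCK1, an exchange factor for Rac, had the lowest p in DMIOA against control, at 0.91 ± 0.17 (adjusted p = 0.129, blocked 0.0358), with 7.33, 7.27 and 7.04 in control and 8.10, 8.32 and 7.94 with DMIOA. ARHGEF6, an exchange factor for the same GTPase, had its lowest values there, though the other DOCK1 probe set had 0.15 (adjusted p = 0.953).

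**Figure D4:**
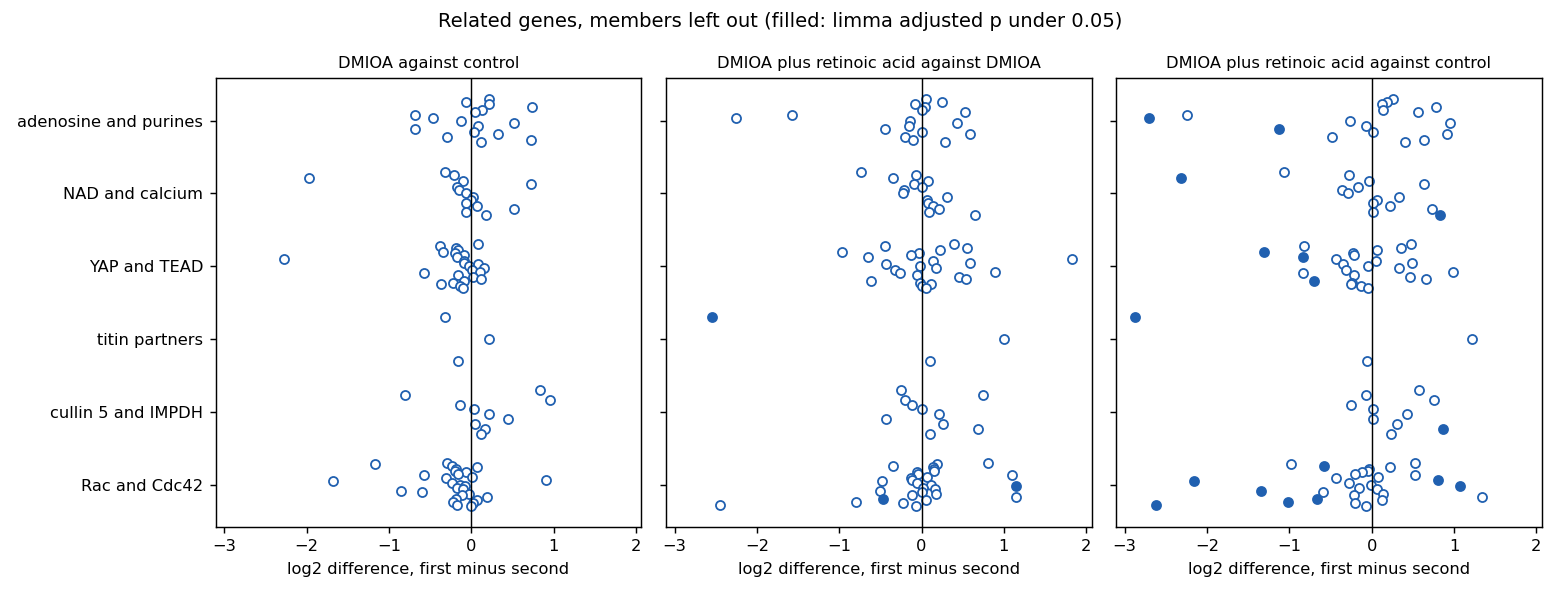
Log2 difference (horizontal axis, first group minus second) of each measured gene in the 6 lists of related genes (rows, members left out) in the 3 comparisons, with filled points for a limma adjusted p under 0.05. No point is filled in DMIOA against control, and the list of 29 Rac and Cdc42 genes holds 8 filled points in retinoic acid against control.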

How the data were processed

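The deposited table holds log2 expression values per probe set for 9 arrays, made by the authors with GCRMA, as the submitters' processing notes say without a version or settings. GCRMA in general corrects background by probe sequence, brings arrays to a common distribution and combines the probes of a set. That the scale is log2 was inferred from the range of the values. Detection calls were not used here, so low signal was judged from the log2 value alone. Names came from the platform annotation (27178 probe sets with 1 symbol, 177 with several, 11180 with none), and the gene IDs of all 5 members were found in the RefSeq gene table. No sequences are printed.

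Chicken probe sets that reached a log2 level of 5 on 3 or more arrays were fitted with 1 mean per group over all 9 arrays with lmFit and eBayes of limma 3.58.1 under R 4.3.3 (6 residual degrees of freedom, 4 with the replicate block). Benjamini-Hochberg adjustment ran over all 12329 probe sets, and an adjusted p under 0.05 was a call. Folds are "at least" where the dimmer group has a value below 5, which 5 then replaces. For related genes the probe set with the highest mean stood for the gene (6945 named genes). In each list and comparison the text names up to 4 called genes with the lowest p, or the 1 with the lowest p where none was called. For each member it names the 3 most correlated genes on each measure. The second DOCK1 probe set, RHOJ, ARHGAP24 and CYFIP1 were added after their values were seen. So were DOCK1, ELMO1, TIAM2 and VAV3 in retinoic acid against control. The members, the lists and the alternatives were chosen with earlier results of these data known. The labels number biological replicates 1 to 3 and name no hen or culture, so a p-value here reflects only how these samples vary. Same-numbered samples of different groups deviated together (r = 0.375 to 0.857 over 9 pairs, each above 0.1). The 18 pairs of unlike numbers had -0.804 to 0.668, the positive ones all between replicates 1 and 2, so the check sets apart replicate 3 and does not tell replicates 1 and 2 from each other. By the rule used here, that every same-numbered pair be above 0.1, the numbers were used as a block in an alternative fit. With replicate 3 apart in every group that rule could hardly fail, so the pairing of replicates 1 and 2 is assumed. Control replicates 1 and 2 both had higher values with DMIOA replicate 1 (0.730 and 0.668) than with DMIOA replicate 2 (0.321 and 0.395). The block is mentioned where a call turns on it. The control and DMIOA titles carry a "(2)" that the retinoic acid titles lack, with no statement of what it marks. The script was tested on simulated data.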

Additional observations from a re-analysis of the deposited data

How the results depend on the processing

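Each result was recomputed under 18 alternatives. The call of ADA in retinoic acid against control held under all of them (differences of 1.35 to 1.50, limma adjusted p of at most 0.00636). All of these fits share the dependence on the choice of members. The members' differences from control to DMIOA and from DMIOA to retinoic acid kept their sign in every alternative that gave a value, though leaving out 1 array moved those of ANKRD9 to between -1.87 and -0.30 and between 0.08 and 1.45. The second ANKRD1 probe set gave none under the filter of 6. With array weights CD38 (1.16, adjusted p = 0.00170) and both ARHGEF6 probe sets (-0.22 and -0.27) were called in retinoic acid against control, as was CD38 with replicates 1 and 2 only (1.24). Those fits called 8317 and 3620 of the 12329 compared probe sets in that comparison, so nothing further is read from these calls. With replicates 1 and 2 only the second ANKRD1 probe set had 0.04 in place of -0.26, and without control replicate 1, control replicate 2 or retinoic acid replicate 3 ANKRD9 had 0.28, 0.14 and 0.43 in place of -0.22; leaving out 1 array in turn gave -1.08 to 0.43. The fits that left out 1 array had no replicate block, so for ANKRD9 they also changed the weight of the low replicate 3. The replicate block changed no call of a member.

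The counts over all probe sets depended on the arrays and the model, and the cause was not tested. For DMIOA against control the 18 calls became 11 with an intensity trend, 269 with array weights, 0 with the 2 groups alone (1137 at an unadjusted p under 0.05), 159 with the replicate block, 172 with replicates 1 and 2 only, and 0 to 39 without 1 array. For retinoic acid against DMIOA the 479 became 1232 with array weights, 216 with the 2 groups alone, 1336 with the replicate block, 1517 with replicates 1 and 2 only, and 146 to 602 without 1 array. For retinoic acid against control the 1623 became 8317 with array weights, 3546 with the replicate block, 3620 with replicates 1 and 2 only, and 546 to 1997 without 1 array. There, cyclic loess moved the split from 831 higher and 792 lower to 612 and 935. Values below a log2 level of 5 limit CD38, ANKRD9 and the second ANKRD1 probe set.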
